A study of Homo sapiens with 12 samples.

Results

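The interferon regulatory factors (IRFs) examined here are 9 genes of the human family: the DNA-binding factors IRF1, IRF2, IRF3, IRF4, IRF5, IRF7, IRF8 and IRF9, and the cofactor IRF2BP2. They were chosen by name, as the rows of a raw count table of 61487 genes whose Ensembl identifier maps to these symbols, and all 9 were found. The cells were MOLM14, an acute myeloid leukemia line of monocytic type that carries a KMT2A fusion, and every group, the untreated one included, held a doxycycline-inducible short hairpin RNA that targets NRIP1, the gene of the nuclear receptor coregulator RIP140. The 4 groups of 3 biological replicates were ATRA+DOX, ATRA alone, DOX alone and untreated. ATRA is all-trans retinoic acid, the ligand of the retinoic acid receptors, given at 1 µM for 48 h. DOX is doxycycline at 50 ng/mL, which switches the hairpin on. Replicates are not described beyond that word, so the p-values measure the spread between these cultures. No group held doxycycline without the hairpin, so the drug and the loss of RIP140 cannot be told apart, and the cells derive from 1 line.

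IRFs share a DNA-binding domain that reads GAAA repeats in interferon-stimulated response elements. IRF3, IRF5 and IRF7 wait in the cytoplasm until pathogen sensors lead to their phosphorylation, IRF9 is part of the complex ISGF3 downstream of interferon receptors, and IRF1, IRF2, IRF4 and IRF8 are controlled mainly by how much is made. In myeloid cells IRF8 directs monocyte and dendritic cell fate together with PU.1, and IRF1 has long been known as a gene that retinoic acid induces in leukemic cells.

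NRIP1 served as the check of the labels. It averaged 18.9 ± 2.66 CPM (counts per 1e6 counts of the library, scaled by TMM) in ATRA+DOX cells, 43.8 ± 7.10 in ATRA cells, 16.6 ± 2.24 in DOX cells and 57.3 ± 3.51 in untreated cells (SD, n = 3 each). Library totals ran from 2.69 to 19.36 in units of 1e6 counts, DOX replicate 3 being the smallest. The share of mitochondrial ribosomal RNA ran from 1.23 to 2.02% in ATRA+DOX libraries, from 2.09 to 2.74% in those of ATRA cells, from 1.02 to 2.18% in DOX libraries and from 2.54 to 4.60% in untreated libraries, untreated replicate 3 having the highest. All 10 myeloid markers of a fixed list had counts in every group, with a sum of at least 1447 CPM in every library, although the monocyte marker CD14 did not pass 0.321 CPM. Of 6 erythroid and megakaryocyte markers, PPBP and PF4 had no count in any library and the sum did not pass 0.768 CPM. The T cell marker CD3E and the epithelial marker EPCAM had no count either, and the plasmacytoid markers CLEC4C and LILRA4 reached at most 0.361 and 0.481 CPM. The list of 5 plasmacytoid markers that holds them summed to 36.9 to 46.2 CPM in ATRA+DOX, 37.8 to 46.4 CPM in ATRA, 46.8 to 56.3 CPM in DOX and 43.1 to 48.6 CPM in untreated libraries, nearly all of it IL3RA, which is also found on leukemic blasts, with TCF4 at up to 3.79 CPM. The summed plasma cell markers, in which XBP1 alone gave 379 CPM or more in every library, ran from 734 to 779 CPM in ATRA+DOX, 538 to 567 in ATRA, 491 to 576 in DOX and 384 to 425 in untreated libraries. A list of fibroblast and epithelial markers also held PECAM1, which is found on endothelial and myeloid cells and gave most of its sum. The sum was 218 to 254 CPM in ATRA+DOX libraries, 174 to 187 CPM in ATRA, 135 to 156 CPM in DOX and 91.3 to 104 CPM in untreated libraries. PECAM1 averaged 206, 158, 107 and 65.5 CPM in that order of groups. COL1A1 and COL1A2 did not pass 0.478 CPM, and nearly all the rest was KRT18. Lymphoid markers summed to 11.9 to 18.2, 14.7 to 19.8, 20.8 to 25.7 and 20.1 to 23.2 CPM in the same order of groups. The part of these sums in the results was not tested. In bulk RNA of this kind, fewer cells of a type and less RNA per cell cannot be told apart.

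The steady-state levels, as counted, placed IRF8 and IRF2BP2 far above the rest of the family. CPM values were divided by the length of each gene's principal transcript to compare genes. IRF8 had 209 ± 11.8 CPM per kb in ATRA+DOX cells, 261 ± 12.4 in cells given ATRA, 146 ± 5.61 in DOX cells and 145 ± 9.48 in untreated cells (SD, n = 3). IRF2BP2, which was first found as a partner of IRF2 and acts mainly as a corepressor, had 116 ± 9.34, 116 ± 4.68, 98.4 ± 3.18 and 103 ± 6.76 CPM per kb in ATRA+DOX, ATRA, DOX and untreated cells. Divided by the length of all exons together, IRF2BP2 (102 ± 6.67) lay above IRF8 (84.9 ± 5.56) in untreated cells, so the order of these 2 genes there depends on the length used. IRF3 came next on both lengths, at 43.7 ± 3.27 CPM per kb of principal transcript in untreated cells.

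Below them in untreated cells stood IRF2 at 9.69 ± 0.717, IRF1 at 9.47 ± 0.198, IRF7 at 8.37 ± 0.700 and IRF5 at 7.21 ± 0.428 CPM per kb of principal transcript. The span of mean ± 1 SD of IRF2 overlapped the spans of IRF1 and IRF7. Over all exons together those of the neighbours IRF2 and IRF7 overlapped, as did those of IRF5 and IRF1. In ATRA cells IRF1 reached 37.5 ± 0.460 CPM per kb, above IRF2 at 11.4 ± 0.686 and close below IRF3 at 46.3 ± 2.47. IRF9 as counted was at or below 0.492 CPM per kb in every group. A same-strand gene overlaps it, so its true level may be higher.

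**Figure D1:**
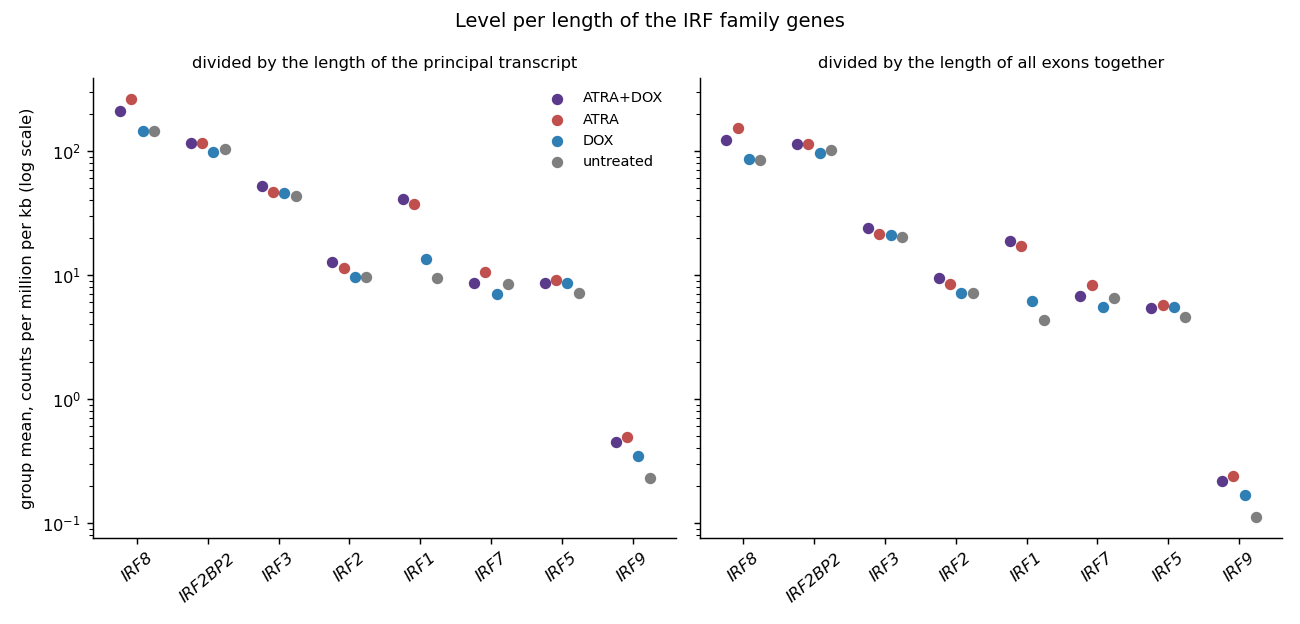
Group mean level of 8 IRF family genes, in CPM per kb on a log scale, over the length of the principal transcript (left) and of all exons together (right); colours mark the 4 groups. IRF8, IRF2BP2 and IRF3 lead on both scales. IRF1 stands with IRF3 only in the ATRA+DOX and ATRA groups (40.9 and 37.5 CPM per kb of principal transcript). IRF9 as counted lies lowest, but its counts are uncertain because a same-strand gene overlaps it. IRF4 is left out because its counts were near 0.

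IRF4, the lymphoid and plasma cell member, was near the floor of detection. It had no count in any ATRA+DOX library, 1, 0 and 2 counts in ATRA, 0, 1 and 0 in DOX, and none in untreated libraries. A total of 3 counts over a group corresponds to 0.0783 CPM in ATRA+DOX and 0.0748 CPM in untreated cells. The absence of counts in these groups does not exclude a level up to about those values. IRF4 did not pass the filter on low counts, and the remaining 8 members did, among 16104 genes tested.

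ATRA changed 3 of the 8 tested members when given alone: IRF1, IRF8 and IRF5 rose and none fell. Over all genes tested, 28.9% were called in ATRA against untreated. The median log2 change of the 8 members was 0.34, against -0.01 over all genes tested. Calls are at an adjusted p below 0.05 from the quasi-likelihood test of edgeR across all genes, with Benjamini-Hochberg adjustment, and changes are log2 ratios with their SE.

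IRF1, a transcription activator and a classic interferon-γ response gene, gave the largest change of the family. It lies on chr5:132481609-132490798 of GRCh38, on the minus strand. Its level was 144, 145 and 151 CPM in ATRA+DOX libraries and 134, 133 and 136 CPM in ATRA libraries, against 44.7, 49.5 and 49.9 CPM in DOX libraries and 33.3, 33.7 and 34.7 CPM in untreated libraries. All 4 groups were apart from one another, in that order from high to low. IRF1 rose 3.95-fold in ATRA against untreated (95% interval 3.53 to 4.43, log2 change 1.98 ± 0.08, adjusted p = 2.77e-14). It rose by 1.62 ± 0.08 on the log2 scale in ATRA+DOX against DOX (adjusted p = 1.58e-12) and by 2.11 ± 0.08 in ATRA+DOX against untreated (adjusted p = 1.15e-14).

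IRF1 shares 22.0% of its exonic bases with IRF1-AS1, a transcript of the opposite strand, and the strand setting of the counting is not given in the sources used here. IRF1-AS1 stood at 31.3, 27.8 and 28.8 CPM in ATRA+DOX and 29.5, 23.4 and 33.6 CPM in ATRA libraries, against 9.87, 9.66 and 8.83 CPM in DOX and 7.05, 9.08 and 10.9 CPM in untreated libraries. It rose in ATRA against untreated by 1.65 ± 0.15 (adjusted p = 1.56e-08). Whether the counting told the reads of the 2 genes apart where they overlap is therefore not known.

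The 250 bases before the RefSeq start of IRF1 (chr5:132490774-132491023, GRCh38.p14, minus strand, the last bases of which GENCODE 29 counts to the gene) are shown because IRF1 changed most. Capitals mark matches to the gamma-activated site of interferon-γ response genes (TTCNNNGAA) and to a site of the NF-κB family (GGGGANTCCC), both searched on both strands.
IRF1 promoter: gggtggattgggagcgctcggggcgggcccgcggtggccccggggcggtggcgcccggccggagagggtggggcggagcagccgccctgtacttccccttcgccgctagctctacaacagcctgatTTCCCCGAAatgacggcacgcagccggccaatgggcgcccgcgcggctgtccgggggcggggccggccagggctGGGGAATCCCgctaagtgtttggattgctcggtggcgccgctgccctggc
The first match begins 124 bases and the second 50 bases before the start. Of 35116 RefSeq windows of 300 bases, 7.66% hold the first motif and 0.424% the second. The response element GAAANNGAAA, held by 3.57% of the windows, was not among the letters of the windows of the 6 members listed there. Those of IRF8 lie inside the annotated gene, and windows of IRF2, IRF3 and IRF7 were not used here. A match describes letters and not binding.

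IRF8 lies on chr16:85898803-85922609, on the plus strand, and encodes the factor that specifies monocytes and dendritic cells. Its level was 640, 595 and 666 CPM in ATRA+DOX libraries and 823, 802 and 750 CPM in ATRA libraries, against 421, 452 and 449 CPM in DOX libraries and 458, 451 and 405 CPM in untreated libraries. Every ATRA+DOX library lay below every ATRA library and above all DOX and untreated libraries, while the DOX and untreated libraries overlapped. IRF8 rose by 0.85 ± 0.09 in ATRA against untreated (adjusted p = 1.34e-07), by 0.52 ± 0.09 in ATRA+DOX against DOX (adjusted p = 0.000146) and by 0.53 ± 0.09 in ATRA+DOX against untreated (adjusted p = 6.7e-05).

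IRF5, the factor that Toll-like receptors engage through MYD88 to drive inflammatory cytokines, lies on chr7:128937612-128950035. It had 24.6, 22.1 and 24.7 CPM in ATRA+DOX, 25.8, 25.0 and 24.9 CPM in ATRA, 20.9, 24.2 and 26.5 CPM in DOX and 21.4, 19.3 and 19.5 CPM in untreated libraries. The ATRA libraries were all above the untreated ones, and the DOX libraries overlapped both. IRF5 rose by 0.33 ± 0.10 in ATRA against untreated (adjusted p = 0.0204). The call was lost in 6 of 21 alternatives: without untreated replicate 2, untreated replicate 3 or ATRA replicate 1, without untreated replicate 3 and DOX replicate 3 together, with the mitochondrial share as a term, and with libraries thinned to equal depth. The range over the alternatives was 0.23 to 0.38.

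**Figure D2:**
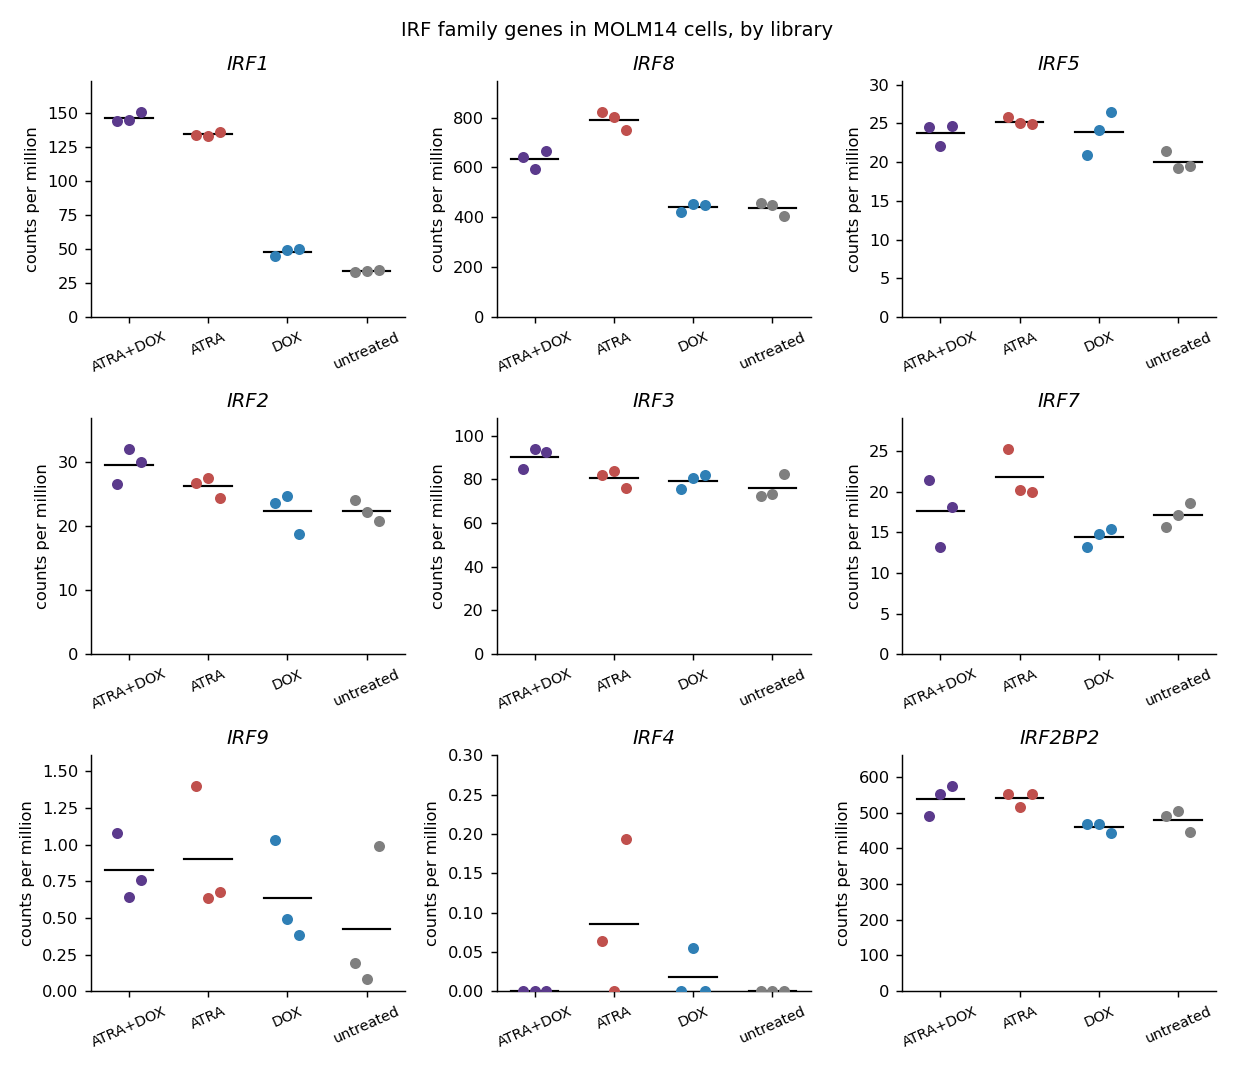
Level of each of the 9 genes in CPM (linear axis from 0), with a point for each of 3 libraries per group and a line at the group mean; groups run from ATRA+DOX to untreated. IRF1 and IRF8 separate the ATRA+DOX and ATRA groups from the DOX and untreated groups, whereas IRF9 and IRF4 rest on few counts.

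The remaining members gave no call in ATRA against untreated. IRF7, the amplifier of type I interferon production on chr11:612553-615999, had 21.5, 13.2 and 18.1 CPM in ATRA+DOX, 25.3, 20.2 and 20 CPM in ATRA, 13.2, 14.8 and 15.4 CPM in DOX and 15.7, 17.1 and 18.6 CPM in untreated libraries. The ATRA libraries were all above the untreated ones, and the ATRA+DOX libraries spread across the other groups. The log2 difference was 0.35 ± 0.15 in ATRA against untreated (95% interval 0.04 to 0.65, adjusted p = 0.0799), and 4 of 21 alternatives called it.

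IRF2, which competes with IRF1 for the same sites and mostly represses, lies on chr4:184387713-184474580. It had 26.6, 32.0 and 30.0 CPM in ATRA+DOX, 26.7, 27.4 and 24.4 CPM in ATRA, 23.5, 24.7 and 18.8 CPM in DOX and 24.1, 22.1 and 20.8 CPM in untreated libraries. All ATRA+DOX libraries lay above the DOX and untreated libraries. IRF2 differed by 0.24 ± 0.11 in ATRA against untreated (adjusted p = 0.115).

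IRF3, the constitutive factor behind the early interferon-β response, lies on chr19:49659569-49665875 and shares 19.3% of its exonic bases with BCL2L12 on the opposite strand. It had 84.8, 94.0 and 92.7 CPM in ATRA+DOX, 82.0, 84.1 and 75.9 CPM in ATRA, 75.5, 80.8 and 82.2 CPM in DOX and 72.4, 73.3 and 82.6 CPM in untreated libraries. The ATRA+DOX libraries were the highest and the other 3 groups overlapped. The difference in ATRA against untreated was 0.08 ± 0.08 (95% interval -0.09 to 0.25).

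IRF2BP2 lies on chr1:234604269-234609525 and shares 14.7% of its exonic bases with an antisense gene. That gene had 24549 counts over all libraries, against 74191 for IRF2BP2. As for IRF1 and IRF3, whether the counting told the reads apart where the genes overlap is not known. It had 490, 553 and 574 CPM in ATRA+DOX, 553, 516 and 553 CPM in ATRA, 467, 467 and 442 CPM in DOX and 490, 505 and 445 CPM in untreated libraries. The ATRA libraries lay above the untreated ones, by 0.17 ± 0.09 (95% interval -0.01 to 0.35, adjusted p = 0.146).

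IRF9, the DNA-binding subunit of ISGF3, gave 112 counts over the 12 libraries. The ATRA+DOX libraries held 18, 8 and 7 counts and the ATRA libraries 22, 6 and 7, against 13, 9 and 1 in the DOX libraries and 2, 1 and 18 in the untreated ones. Untreated replicate 3 stood apart from the other untreated libraries, and without it the log2 difference in ATRA against untreated was 2.71 (adjusted p = 0.0121), against 0.93 ± 0.58 (adjusted p = 0.247) with it. It was 2.55 (adjusted p = 0.017) without that library and 0.77 ± 0.59 (adjusted p = 0.32) with it in ATRA+DOX against untreated. IRF9 (chr14:24161053-24166565) shares 1838 bases, 48.4% of its exonic bases, with a same-strand gene. Its principal transcript is also 1838 bases long, so most reads of that transcript may not have been assigned to IRF9. Its counts are therefore uncertain, its true level may be higher than counted, and the differences above rest on the reads that were assigned.

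DOX alone changed 1 of the 8 members, IRF1, which rose by 0.49 ± 0.08, a fold of 1.41 (95% interval 1.25 to 1.58, adjusted p = 0.00114). Over all genes tested 15.2% were called in DOX against untreated. The median of the 8 members was 0.06, against 0.01 over all genes. All 3 DOX libraries were above all 3 untreated libraries. The share of mitochondrial ribosomal RNA was lower in each DOX library than in each untreated library, and with that share as a term in the fit the change of IRF1 was 0.41 and no longer called (adjusted p = 0.174), when 77 genes were called in place of 2446. The part of this share in the result was not tested. Without untreated replicate 3 and DOX replicate 3 the change was 0.50 (adjusted p = 0.0252), when 169 genes were called.

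The other members in DOX against untreated had log2 differences between -0.27 for IRF7 (95% interval -0.60 to 0.05, adjusted p = 0.237) and 0.48 for IRF9 (95% interval -0.84 to 1.81). IRF8 differed by 0.01 ± 0.09 (95% interval -0.17 to 0.19) and IRF5 by 0.22 ± 0.11 (adjusted p = 0.163). For IRF7 all 3 DOX libraries were below the untreated ones.

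Among ATRA-treated cells, IRF8 was lower in those that also received DOX. It fell by 0.32 on the log2 scale (SE 0.09, fold 0.800) in ATRA+DOX against ATRA (adjusted p = 0.0366), and it was the 1 member called where 4.43% of all genes tested were. The median of the members was -0.05 and that of all genes -0.00. The call was lost in 12 of 21 alternatives, 9 of which leave out a single library, while the change stayed between -0.40 and -0.27. IRF1 differed by 0.13 ± 0.07 in this comparison (95% interval -0.03 to 0.28, adjusted p = 0.367), although its ATRA+DOX libraries were all above the ATRA libraries. IRF7 differed by -0.31 ± 0.15 (95% interval -0.62 to -0.01, adjusted p = 0.255), with overlapping libraries. IRF3 differed by 0.16 ± 0.08 (adjusted p = 0.285) and IRF2 by 0.17 ± 0.11 (adjusted p = 0.413).

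ATRA in cells with the hairpin on raised IRF1, IRF8 and IRF2, 3 of the 8 members, where 19.0% of all genes tested were called in ATRA+DOX against DOX. IRF2 rose by 0.35 ± 0.11 (adjusted p = 0.0326), a call that 8 of 21 alternatives lost, those without DOX replicate 3, ATRA+DOX replicate 2 or ATRA+DOX replicate 3 among them. The median of the members was 0.30. IRF2BP2 differed by 0.23 ± 0.09 (adjusted p = 0.0716) and was called under 4 alternatives. IRF5 differed by 0.03 ± 0.11 (95% interval -0.20 to 0.25).

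Both agents together changed 4 of the 8 members, IRF1, IRF8, IRF2 and IRF3, all of them upward, where 38.0% of all genes tested were called in ATRA+DOX against untreated. IRF2 rose by 0.41 ± 0.11 (adjusted p = 0.00574) and IRF3 by 0.25 ± 0.08 (adjusted p = 0.0228). Both calls were lost when libraries were thinned to equal depth and when the mitochondrial share was a term. That of IRF3 was also lost without untreated replicate 1, untreated replicate 2, ATRA+DOX replicate 2 or ATRA+DOX replicate 3, with a range of 0.15 to 0.31 over the alternatives. The comparisons with ATRA+DOX share that group, and those with untreated share the untreated libraries, so they are not independent of one another.

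No member passed the test of the interaction, which subtracts the change in ATRA against untreated from that in ATRA+DOX against DOX. Of all genes tested, edgeR called 0.267% for it. DESeq2 called 0 members as well, and 2 members had an unadjusted p under 0.05 in edgeR. These were IRF1 at -0.37 ± 0.11 (95% interval -0.60 to -0.14, adjusted p = 0.206) and IRF8 at -0.33 ± 0.12 (95% interval -0.59 to -0.08, adjusted p = 0.331). Without DOX replicate 1 the interaction of IRF1 was called. So the ATRA response of either gene is not shown to differ between cells with and without DOX.

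**Figure D3:**
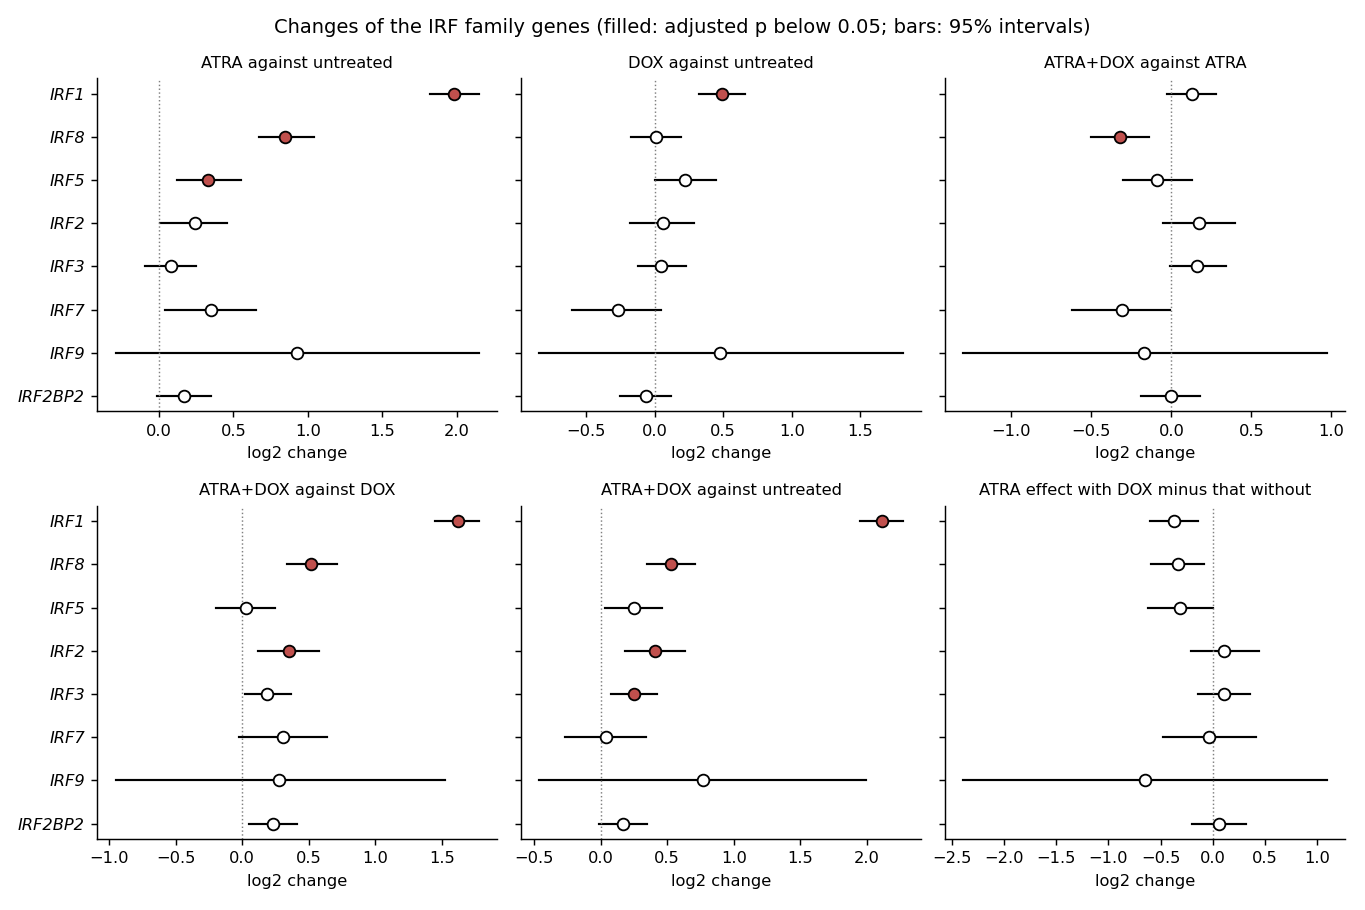
Log2 changes of the 8 tested members in 6 comparisons, with 95% intervals; filled points have an adjusted p below 0.05 and the horizontal scale differs between panels. IRF1 leads in each comparison of ATRA-treated with ATRA-free cells (1.98, 1.62 and 2.11), IRF8 is the filled point below 0 (-0.32), and the panel of the interaction has none.

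The members differed in how closely replicates held together. The coefficient of variation of IRF1 was 2.47% in ATRA+DOX, 1.23% in ATRA, 6.10% in DOX and 2.09% in untreated libraries. IRF7 varied by 23.5% in ATRA+DOX and 13.8% in ATRA libraries, and IRF9 by 117% in untreated libraries. DOX replicate 3, the smallest library, held 130 counts of IRF1, 40 of IRF7 and 1 of IRF9.

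Genes whose pattern over the 12 libraries was most like a member's were sought among 8087 protein-coding genes with at least 10 CPM on average, by Pearson's r of log2 CPM, and are given as a description. IRF1 was closest to BPI (r = 0.995), IL31RA (0.994) and RAB20 (0.994). BPI, a bactericidal granule protein, averaged 122 CPM in ATRA+DOX, 104 in ATRA, 8.25 in DOX and 3.48 in untreated cells. IRF8 was closest to PLD3 (0.982), LILRA1 (0.981) and STAR (0.981). PLD3, a lysosomal exonuclease, averaged 117 CPM in ATRA+DOX, 154 in ATRA, 60.9 in DOX and 54.9 in untreated cells. The nearest gene was KBTBD4 for IRF2 (0.952), FLOT1 for IRF3 (0.911) and RPS6KA4 for IRF5 (0.926). All these values share the same libraries and treatments.

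Upstream of the family, 3 interferon genes were looked at. IFNG and IFNL1 had no count in any library, and IFNB1 had 1 count, in the ATRA group. The remaining interferon genes were not analysed here. The list counts from here on are to be read beside the shares of all genes tested that were called. These were 28.9% in ATRA against untreated, 15.2% in DOX against untreated, 4.43% in ATRA+DOX against ATRA and 19.0% in ATRA+DOX against DOX. Of the 5 tested genes of a list of interferon genes and receptors, 4 rose in ATRA against untreated and none fell, with a median of 0.47; at equal depth 2 of 4 rose. IFNAR2, a chain of the type I interferon receptor, averaged 37.7 ± 2.52 CPM in ATRA+DOX, 44.0 ± 2.39 in ATRA, 22.1 ± 1.28 in DOX and 17.6 ± 1.12 in untreated cells. It rose by 1.33 ± 0.10 in ATRA against untreated (adjusted p = 8.47e-10). IFNGR2 rose by 0.47 (adjusted p = 0.000405) and IFNAR1 by 0.37 (adjusted p = 0.00416).

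Of 12 genes that carry receptor signals to IRF promoters, 7 rose and 1 fell in ATRA against untreated, with a median of 0.42. PTPN6, a phosphatase that restrains JAK kinases, rose by 0.93 and the feedback inhibitor SOCS3 by 1.24, and STAT3 fell by 0.34. In DOX against untreated none of the 12 passed. The kinase TYK2 fell by 0.33 in ATRA+DOX against ATRA (adjusted p = 0.0147). It was the 1 call of the list there, where 4.43% of all genes tested were called.

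Of 18 tested sensors, adaptors and kinases that lead to IRF3, IRF5 and IRF7, 9 rose and none fell in ATRA against untreated, with a median of 0.36. At equal depth 4 of 15 rose. IKBKE and TBK1, the kinases that phosphorylate IRF3 and IRF7, rose by 0.67 and 0.51 (adjusted p = 2.54e-05 and 0.00108). The DNA sensor CGAS rose by 0.51, and TLR4 rose by 1.98 to an average of 2.27 CPM in ATRA cells, against 0.579 CPM in untreated cells. The 1 call in ATRA+DOX against ATRA was TASL, where 4.43% of all genes tested were called. TASL, an adaptor through which endolysosomal receptors activate IRF5, fell by 0.38 (adjusted p = 0.0195, and 0.0567 at equal depth). SLC15A4, the transporter that holds TASL, was the 1 call in DOX against untreated, where 15.2% of all genes tested were called. It rose by 0.33 (adjusted p = 0.0396). It was not called at equal depth, with the mitochondrial share as a term or without untreated replicate 3 and DOX replicate 3.

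Among 10 DNA-binding partners of IRF4 and IRF8, 3 rose and 1 fell in ATRA against untreated, where 28.9% of all genes tested were called. BATF2, a partner of Irf1 in mouse macrophages, had 109 counts in ATRA+DOX, 132 in ATRA, 1 in DOX and none in untreated libraries. Against the limit of 3 counts over the untreated group it was at least 49.7-fold higher in ATRA cells and at least 38.1-fold higher in ATRA+DOX cells. SPI1, which encodes PU.1, averaged 249 CPM in ATRA+DOX, 265 in ATRA, 213 in DOX and 176 in untreated cells, and rose by 0.59 in ATRA against untreated (adjusted p = 9.59e-06). JUNB rose by 0.57 (adjusted p = 0.000575). TCF3 fell by 0.46 (adjusted p = 0.000203).

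Targets bound by ISGF3 rose broadly with ATRA. Of 20 such genes, all tested, 18 rose and none fell in ATRA against untreated, with a median of 2.22. MX1 at -0.71 (adjusted p = 0.143) and HERC5 at -0.17 (adjusted p = 0.379), named after their values were seen, were the exceptions. IFI6, a mitochondrial antiviral protein, averaged 18.8 CPM in ATRA+DOX, 17.5 in ATRA, 1.97 in DOX and 0.948 in untreated cells, and rose by 4.23 ± 0.26 in ATRA against untreated (adjusted p = 4.1e-11). BST2, the virion tether, rose by 1.57 ± 0.09 and OAS3, an RNA-activated antiviral enzyme, by 2.16. In ATRA+DOX against DOX 18 rose as well, with a median of 1.73.

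In DOX against untreated 4 of these 20 genes rose (BST2, IFIT5, IFI6 and IFI35) and none fell, with a median of 0.44. That is near the share of all genes tested that were called there, 15.2%. BST2 rose by 0.60 ± 0.09 (adjusted p = 0.000843). With the mitochondrial share as a term none of the 20 was called, and without untreated replicate 3 and DOX replicate 3 together 1 was. In ATRA+DOX against ATRA the median was 0.15 and the 1 call was XAF1, where 4.43% of all genes tested were called. XAF1, an antagonist of apoptosis inhibitors, rose by 0.47 ± 0.09 (adjusted p = 0.005, and 0.0559 at equal depth).

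Of 18 targets long tied to IRF1, 15 were tested, and 11 rose and none fell in ATRA against untreated, with a median of 0.60. GBP4, a guanylate-binding protein, averaged 11.9 CPM in ATRA+DOX, 8.03 in ATRA, 0.199 in DOX and 0.133 in untreated cells, and rose by 5.89 in ATRA against untreated (adjusted p = 1.43e-10). PSMB9, an immunoproteasome subunit, rose by 1.33, and WARS1, a tryptophan-tRNA ligase, by 1.12. GBP1 did not pass the filter, with 7, 1, 0 and 0 counts in the ATRA+DOX, ATRA, DOX and untreated groups.

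DOX without ATRA raised 6 of these 15 targets and lowered none, with a median of 0.33, where 15.2% of all genes tested were called. PSMB9 rose by 0.66, PSMB8 by 0.45 and B2M, the light chain of class I molecules, by 0.50. None of the 15 was called with the mitochondrial share as a term, and 1 was without untreated replicate 3 and DOX replicate 3. In ATRA+DOX against ATRA, GBP5 and PSMB9 rose and CIITA fell, with a median of 0.05, where 4.43% of all genes tested were called. GBP5 averaged 17.8 ± 2.21 CPM in ATRA+DOX, 4.17 ± 0.138 in ATRA, 0.923 ± 0.849 in DOX and 0.345 ± 0.110 in untreated cells, and rose by 2.10 ± 0.21 in ATRA+DOX against ATRA (adjusted p = 4.69e-06). CIITA, the transactivator of class II genes, averaged 37.7 ± 2.13 CPM in ATRA+DOX, 54.0 ± 4.40 in ATRA, 30.0 ± 3.68 in DOX and 26.2 ± 1.66 in untreated cells. It fell by 0.52 ± 0.10 in ATRA+DOX against ATRA (adjusted p = 0.00279).

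**Figure D4:**
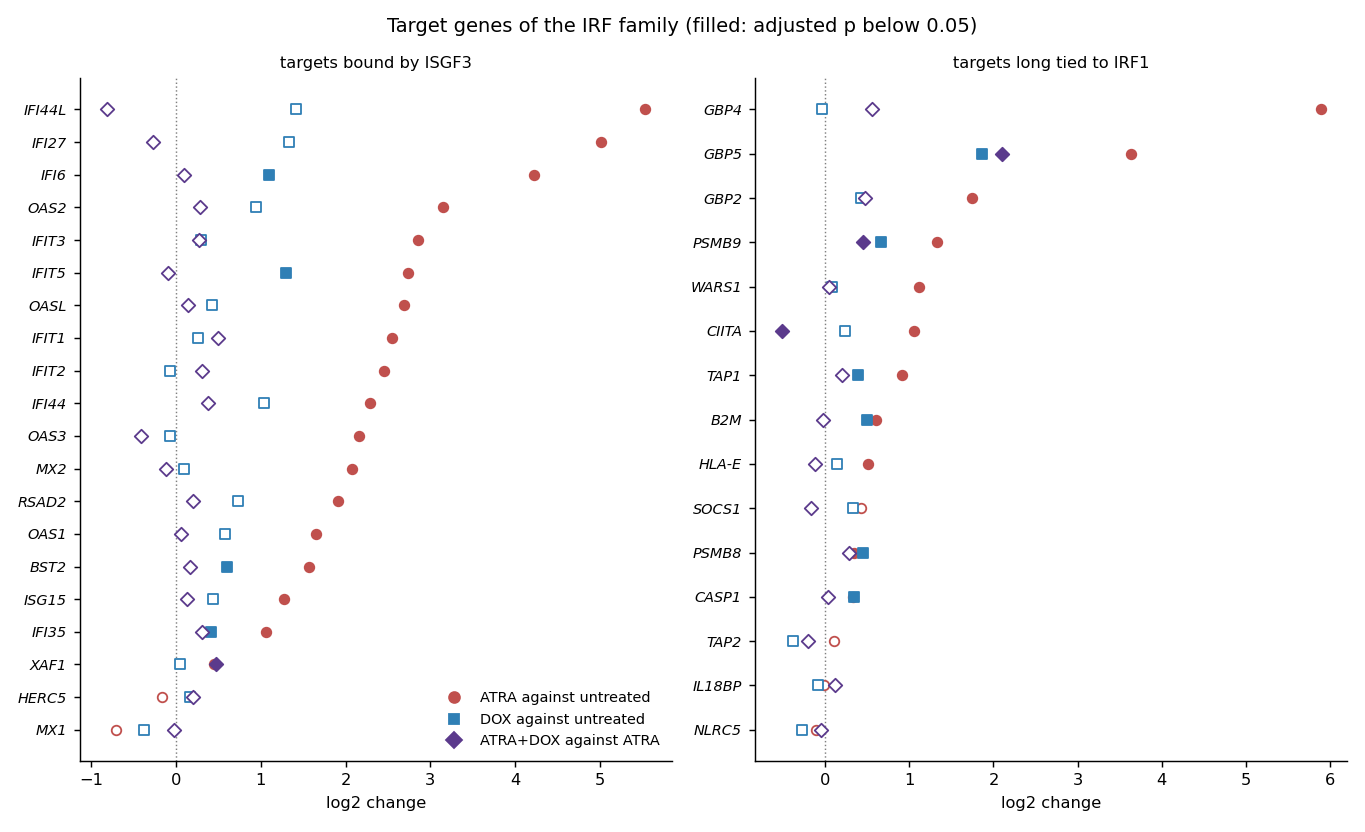
Log2 changes of the tested ISGF3 targets (left, 20 genes) and IRF1-tied targets (right, 15 genes) in 3 comparisons; filled symbols have an adjusted p below 0.05. Nearly all ATRA symbols lie to the right of 0 (18 and 11 called), and the DOX symbols are mostly open (4 and 6 called). GBP5, PSMB9, XAF1 and CIITA are the filled diamonds of ATRA+DOX against ATRA. Of all genes tested, 28.9%, 15.2% and 4.43% were called in ATRA against untreated, DOX against untreated and ATRA+DOX against ATRA.

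The promoters of these targets carry the element that IRFs read. Windows of 16 ISGF3 targets were in the RefSeq table, and 13 of them (81.2%) hold GAAANNGAAA on either strand, as do 10 of 11 IRF1-tied targets (90.9%), against 4.38% of the 27305 genes with a window. Of 9 targets of IRF8 with PU.1, CYBB was the 1 gene (11.1%) with a match. The lists were drawn from genes known for such elements, so these shares describe them. The sites of targets named above show the repeat, in capitals with 6 bases on either side, on the strand of the gene (GRCh38.p14).
IFI6, chr1:27672292-27672313 (minus): agagggGAAAATGAAActgcag
BST2, chr19:17405745-17405766 (minus): ttctggGAAACTGAAActgaaa
OAS3, chr12:112938325-112938346 (plus): agaaacGAAACTGAAAgcaggg
IFIT5, chr10:89414517-89414538 (plus): attaagTTTCGGTTTCtgaagc
WARS1, chr14:100375387-100375408 (minus): agaaggGAAACTGAAAgaaaga
GBP1, chr1:89065320-89065341 (minus): aagtacTTTCAGTTTCatatta
IFI6, BST2, OAS3, IFIT5 and WARS1 all rose in ATRA against untreated. GBP1, whose repeat lies on the other strand like that of IFIT5, stayed near 0 counts. MX1, HERC5, TAP2, IL18BP and SOCS1 hold the repeat too and were not called in that comparison.

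Targets of IRF8 with PU.1 did not move in 1 direction. Of 8 tested, 4 rose and 1 fell in ATRA against untreated, with a median of 0.31, where 28.9% of all genes tested were called. CSF1R, the receptor of macrophage colony-stimulating factor, averaged 18.7 CPM in ATRA+DOX, 26.8 in ATRA, 5.23 in DOX and 7.20 in untreated cells. It rose by 1.89 ± 0.16 in ATRA against untreated (adjusted p = 7.2e-09) and fell by 0.53 ± 0.14 in ATRA+DOX against ATRA (adjusted p = 0.0405). CST3, the protease inhibitor cystatin C, rose by 0.80 ± 0.09 in ATRA against untreated and by 0.38 ± 0.09 in DOX against untreated, and fell by 0.37 ± 0.09 in ATRA+DOX against ATRA. CSF1R and CST3 were the 2 calls of the list in ATRA+DOX against ATRA, where 4.43% of all genes tested were called. The call of CSF1R was lost at equal depth (adjusted p = 0.0722) and without untreated replicate 3 and DOX replicate 3 (adjusted p = 0.0611). FCGR1A, the high-affinity Fc receptor, fell by 0.73 ± 0.14 with ATRA and rose by 0.65 ± 0.13 with DOX (adjusted p = 0.000297 and 0.0042). In DOX against untreated none of the list was called with the mitochondrial share as a term or without untreated replicate 3 and DOX replicate 3; FCGR1A was then at 0.72 (adjusted p = 0.114) and 0.58 (adjusted p = 0.0772), and CST3 at 0.23 (adjusted p = 0.646) and 0.34 (adjusted p = 0.128). At equal depth 2 of 7 rose and 1 fell in ATRA against untreated. CYBB and CD68 did not pass the filter.

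Of 7 tested partners of IRF2BP2, 1 rose (MIER1, 0.33) and 3 fell in ATRA against untreated, where 28.9% of all genes tested were called. VGLL4 fell by 0.29, CBFA2T3 by 0.31 and ZBTB16 by 0.86. At equal depth 1 of 6 was called in this comparison. CBFA2T3, a corepressor, was also lower in DOX against untreated, by 0.31 ± 0.09 (adjusted p = 0.0272). That call was lost at equal depth (adjusted p = 0.0688), with the mitochondrial share as a term (0.513) and without untreated replicate 3 and DOX replicate 3 (0.195). The paralogs IRF2BP1 and IRF2BPL gave no call in any comparison, with differences in ATRA against untreated of 0.01 (95% interval -0.22 to 0.24) and 0.31 (adjusted p = 0.264).

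**Figure D5:**
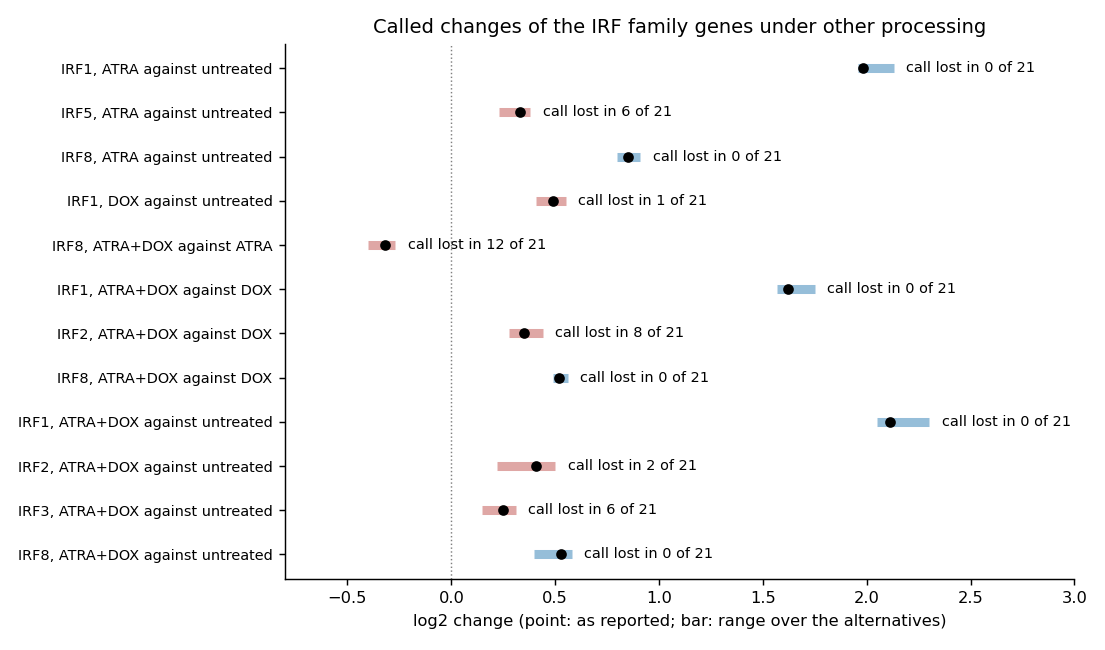
The 12 called changes of IRF family genes, as log2 change (point) with the range over 21 other settings (bar); red bars lost the call in at least 1 setting. IRF1 and IRF8 kept their ATRA calls in every setting run, IRF8 in ATRA+DOX against ATRA lost its call in 12 settings at values between -0.40 and -0.27, and no bar crosses 0.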

How the data were processed

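Per the labels' protocols, paired-end Illumina sequencing was run on RNA of 12 MOLM14 cultures. The authors deposited raw whole-number counts per gene and library; FastQC, STAR, HTSeq and GRCh38 are named by the submitters' processing notes, while versions, annotation and strand setting are not given in the sources used here. Groups come from the labels. The table held 23 empty columns without names. From these counts, edgeR 4.0.16 in R 4.3.3 (filterByExpr, TMM, 1 quasi-likelihood model of the 4 group means, biological coefficient of variation 9.54%) tested 16104 genes, with Benjamini-Hochberg adjustment and a threshold of 0.05. CPM use TMM-scaled totals, and floors cover counting error only. DESeq2 1.42.0 was an alternative. The fit was tested on simulated data. Coordinates and lengths come from GENCODE 29, promoters from RefSeq (GRCh38.p14).

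The members and all lists were chosen with earlier results of these data known. Of a list, up to 4 genes with the smallest adjusted p in a contrast were named and followed, besides the members and NRIP1. Replicates of a group differed beyond counting noise, and none was merged. The deviations of same-numbered replicates from their group means, in log2 CPM, correlated between -0.244 and 0.267 across groups. The numbers were therefore not taken to pair the replicates.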

Additional observations from a re-analysis of the deposited data

Results flagged for a closer look

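The difference between the ATRA response with and without DOX passed the test for 2 genes of the target lists. Of all genes tested 0.267% were called for it. For CIITA the interaction was -0.76 ± 0.14 on the log2 scale (edgeR, adjusted p = 0.0223): ATRA changed it by 0.29 ± 0.10 in ATRA+DOX against DOX and by 1.05 ± 0.10 in ATRA against untreated. For CST3 the interaction was -0.75 ± 0.13 (adjusted p = 0.0135), with 0.05 ± 0.09 in ATRA+DOX against DOX and 0.80 ± 0.09 in ATRA against untreated. The interaction of CIITA was not called at equal depth (adjusted p = 0.215), with the mitochondrial share as a term (0.0624) or without untreated replicate 3 and DOX replicate 3 (0.104), and that of CST3 was not called without those 2 libraries (0.119). All 3 ATRA+DOX libraries were below all 3 ATRA libraries for both genes.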

How the results depend on the processing

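Of 12 calls of members, 6 held under every alternative, 6 were lost under at least 1 and 0 turned in sign; of 36 uncalled pairs of member and comparison, 8 were called under at least 1. In ATRA against untreated IRF5 was lost in 6 of 21 and the count of members called ran from 2 (with the mitochondrial term, for example) to 4, against 3. In DOX against untreated the count of members called was 0 with the mitochondrial ribosomal RNA share as a term, against 1 as reported. In ATRA+DOX against ATRA it was 0 without the filter on low counts, 0 with the replicate block (IRF8 at adjusted p = 0.0515) and 0 without untreated replicate 3 and DOX replicate 3 together; leaving out 1 library at a time gave 0 to 1, with 0 without untreated replicates 1 and 2, each ATRA replicate, DOX replicate 3 and each ATRA+DOX replicate. In ATRA+DOX against untreated it was 2 at equal depth and 2 with the mitochondrial term, against 4. For the interaction, leaving out 1 library gave 0 to 1, the 1 being IRF1 without DOX replicate 1. The replicate block changed no other call of a member. The causes were not tested. The thinnest library, DOX replicate 3 with 2.69 in units of 1e6 counts, held 1 count of IRF9 and 0 of IRF4. Calls over all genes in DOX against untreated ran from 77 with the mitochondrial term to 4326 without DOX replicate 1, against 2446; they were 659 without DOX replicate 2 and 731 without untreated replicate 3. Interaction calls ran from 9 to 747, against 43 as reported. Settings for the target lists were added after seeing the data.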
